A study of Oryza sativa with 8 samples.

Results

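A set of 107 rice genes was described whose transcripts fell in dehydrated wild-type seedlings and were lower again in a dehydrated SDG708 RNAi line. Members were chosen from their FPKM values (read fragments scaled to gene length and to a denominator for each library) among 34119 loci. The lowest untreated wild-type library had to reach at least 2 FPKM. The highest wild-type library under polyethylene glycol (PEG) had to be at most 0.5 times the lowest untreated one, and the lowest had to stay above 0.125 of it. The highest RNAi library then had to be at most 0.65 times the lowest wild-type PEG library. Both comparisons between the groups were therefore used to choose the members, and their values in the groups are a description with no test.

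RNA was sequenced from seedlings aged 14 days. Wild-type plants (NIP) were left untreated (WT_control, n = 3) or kept for 3 h in 20% PEG8000 (WT_PEG, n = 2). Plants of a single RNAi line against SDG708, 708Ri-1-1, received the same PEG treatment (708RNAi_PEG, n = 3). A treatment time of 0 h is recorded for the untreated seedlings. Any part of time of day or handling in the differences under PEG was not tested. No untreated RNAi seedlings were analysed here, so a difference that the line has without PEG and one that it has under PEG cannot be told apart. The row of SDG708 was not analysed here, and the knockdown was not checked. In bulk seedling RNA, fewer cells of a type and less RNA per cell cannot be told apart. Whether the replicates are separate plants is not stated, and p-values therefore reflect only how far these libraries differ, possibly for technical reasons.

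PEG of high molecular weight stays outside the cells and lowers the water potential of the medium, which withholds water from the roots. Plants that lose water close their stomata and slow the expansion of their cells, which depends on water uptake into the vacuole and on loosening of the wall. SDG708 belongs to the SET-domain proteins, a family that includes the enzymes that methylate histone lysines.

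Of the 34119 loci, 15601 had at least 2 FPKM in every untreated library, and 1551 of these met the condition on the wild-type PEG libraries. The 107 members were 6.9% of the 1551. The mirrored rule, with every RNAi library at least as high as the highest wild-type PEG library divided by 0.65, took 61 of them (3.93%), and 1383 met neither rule. All 107 members passed the filter of the fit over all genes, and all 107 were called lower under PEG, lower in the RNAi line than in wild-type under PEG, and lower in the RNAi line than in untreated wild-type (limma, Benjamini-Hochberg adjusted p under 0.05). Among the 20943 genes tested, 36.8% were called lower and 38.6% higher under PEG. The RNAi line had 16.4% lower and 21.3% higher against wild-type under PEG, and 40% lower and 41% higher against untreated wild-type. The rule used these contrasts, which also share their libraries, and nothing is read from the shares. With scaling to total recovered reads the calls in the RNAi comparison split the other way, 3444 higher and 4402 lower against 4451 and 3428. The number of genes called in the RNAi comparison was 7879, and it was 5174 without WT_PEG replicate 2.

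**Figure D1:**
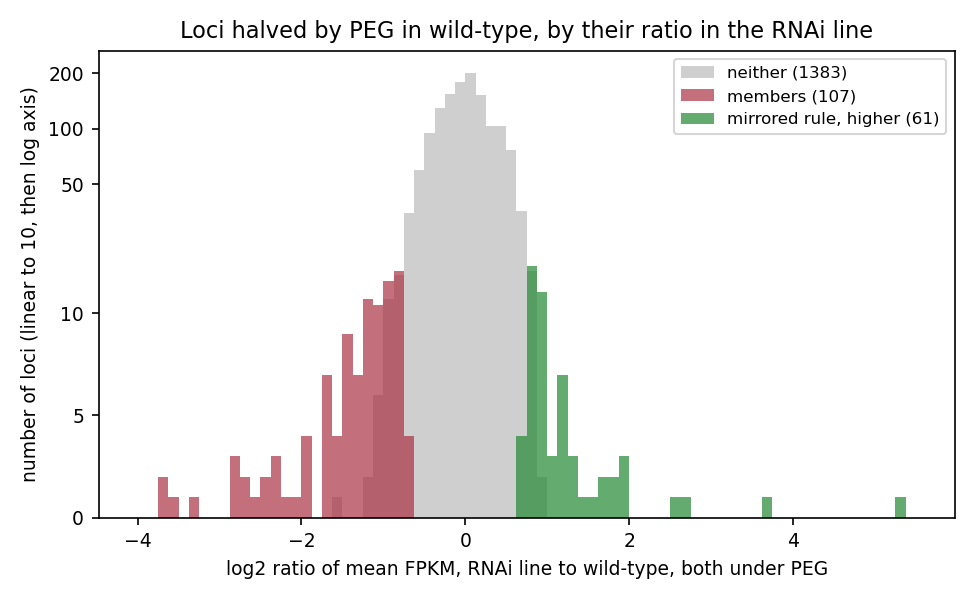
Number of loci (vertical axis, linear to 10 and logarithmic above) by the log2 ratio of mean FPKM in the RNAi line to wild-type, both under PEG, for the 1551 loci that met the condition on the wild-type PEG libraries. The 107 members lie on the left, the 61 loci of the mirrored rule on the right, and the 1383 others centre on a ratio of 1.

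Summed over the 107 members, the libraries of untreated wild-type had 2399, 2400 and 2574 FPKM. Wild-type under PEG had 792.5 and 821 FPKM in sum, and the RNAi line 381.1, 370 and 382.8 FPKM. The 3 groups lay apart, as the rule requires of every member. In the median, a member stood at 0.306 and 0.333 of its untreated mean in the wild-type PEG libraries and at 0.135, 0.128 and 0.131 in the RNAi libraries. The ratio of means under PEG to untreated ran from 0.131 to 0.455 with a median of 0.316, and the ratio of the RNAi line to wild-type under PEG from 0.0755 to 0.618 with a median of 0.433. The RNAi line under PEG was below 0.1 of the untreated wild-type level in 37 members (34.6%).

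**Figure D2:**
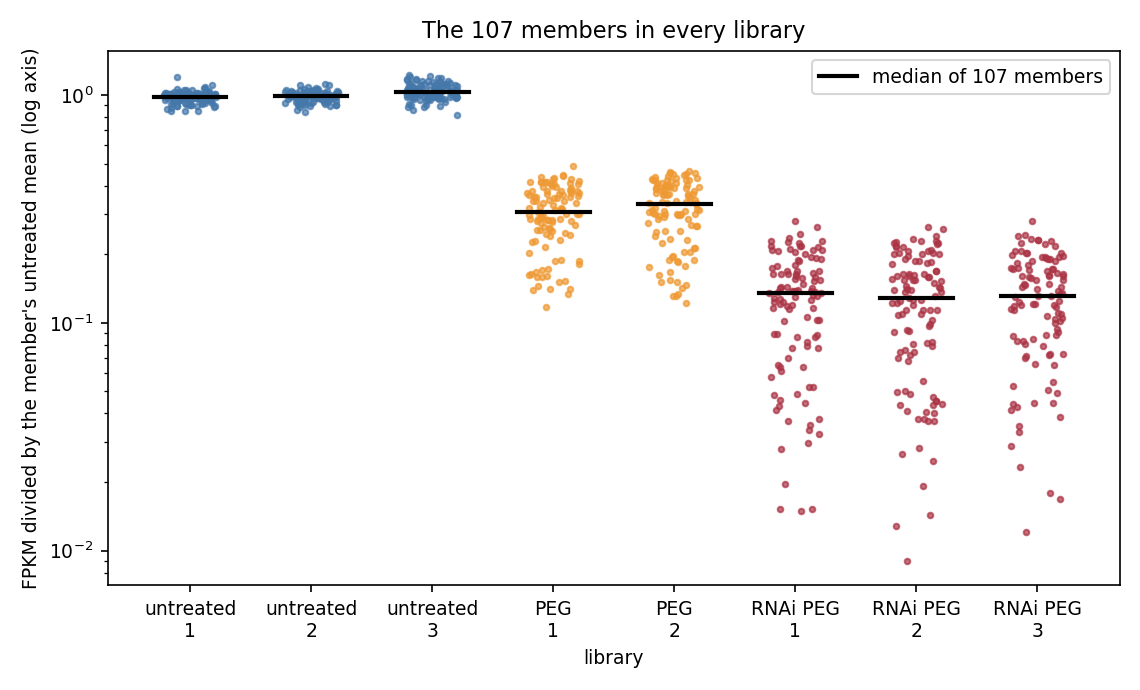
FPKM of each member divided by its untreated mean (log axis) in each of the 8 libraries, 1 point per member, with the median of the 107 members as a bar. The medians are 0.979 to 1.03 in untreated wild-type, 0.306 and 0.333 in wild-type under PEG, and 0.128 to 0.135 in the RNAi line.

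A gene name could be given to 10 members, and the other 97 are given by locus identifier. Of the 10, TIP2-1, TIP4-2 and PORB were on gene lists written for this work, and the other 7 were looked up after their values were seen. Locus and name were paired from general knowledge and checked only by chromosome and gene length.

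Aquaporins of the tonoplast intrinsic protein (TIP) family carry water across the vacuole membrane, and 2 were members. TIP2-1 (LOC_Os02g44080) was at 193, 188 and 194 FPKM in untreated wild-type, 60.4 and 57.5 FPKM in wild-type under PEG, and 31.5, 31.5 and 35.1 FPKM in the RNAi line. It was the member with the second highest untreated level, and its libraries within a group lay close together. TIP4-2 (LOC_Os01g13120) was at 26.8, 28.1 and 35.6 FPKM untreated, 3.54 and 4.64 FPKM under PEG, and 1.74, 2.18 and 2.11 FPKM in the RNAi line. Its untreated replicate 3 stood above the other untreated libraries, and its fall under PEG to 0.136 of the untreated mean was the second deepest among the members. The RNAi line had 0.554 of the wild-type PEG mean for TIP2-1 and 0.491 for TIP4-2.

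The listed aquaporins did not move as one. Of 18 plasma membrane and vacuolar aquaporin genes tested, the 2 members among them, 8 rose and 8 fell under PEG. Of the 8 that fell, 6 were not members. The median log2 fold change of FPKM + 1 was -0.12 against 0.02 over all genes. In the RNAi line 4 were higher and 7 lower than wild-type under PEG, and 5 of the 7 were not members. The median there was -0.05 against 0.01. All-gene shares were 36.8% lower and 38.6% higher under PEG, and 16.4% lower and 21.3% higher in the RNAi line. PIP2-5 (LOC_Os07g26660), a plasma membrane aquaporin, was at 29.3, 28.2 and 29.2 FPKM untreated, 12.7 and 12.6 FPKM under PEG and 7.49, 8.27 and 7.43 FPKM in the RNAi line. Its highest RNAi library was 0.6583 of its lowest wild-type PEG library, which left it just outside the set. Here and below, FPKM values with ± are mean and SD over 3 RNAi or 2 wild-type PEG libraries, and log2 fold changes have ± SE. PIP2-4 was lower in the RNAi line as well (26.4 ± 0.14 FPKM, wild-type 37.7 ± 1.09 FPKM, log2 fold change -0.50 ± 0.04, limma adjusted p = 3.3e-05). Opposite in sign, TIP2-2, another vacuolar channel, rose under PEG from 493 to 686 FPKM and was at 956 ± 16.9 FPKM in the RNAi line (log2 fold change 0.48 ± 0.07, limma adjusted p = 0.00095). From a low level, PIP2-8 was higher by more, at 3.78 ± 0.38 against 0.414 ± 0.034 FPKM (log2 fold change 1.75 ± 0.07, limma adjusted p = 3.6e-07). Without WT_PEG replicate 2 the RNAi counts were 3 higher and 4 lower, and limma-voom on recovered reads gave 6 higher and 7 lower.

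PORB (LOC_Os10g35370) encodes a light-dependent protochlorophyllide oxidoreductase of chlorophyll synthesis. It was at 132, 130 and 141 FPKM untreated, 44.2 and 44.8 FPKM under PEG, and 27.8, 27.9 and 26 FPKM in the RNAi line. The RNAi line had 0.612 of the wild-type PEG mean, close to the limit of the rule. PORA (LOC_Os04g58200), its paralog, was at 245, 238 and 276 FPKM untreated, 77.5 and 85.7 FPKM under PEG and 63.7, 57.4 and 61.9 FPKM in the RNAi line. Under PEG PORA fell about as far as PORB, to 0.322 against 0.331 of untreated, while in the RNAi line it stood at 0.747 of wild-type (log2 fold change -0.41 ± 0.08, limma adjusted p = 0.0032). Of the 12 chlorophyll synthesis genes tested, 11 fell and 0 rose under PEG, with a median log2 fold change of -0.96. In the RNAi line 5 were lower and 1 was higher, with a median of -0.15, and 4 of the 5 were not members. All-gene shares were 36.8% lower and 38.6% higher under PEG, and 16.4% lower and 21.3% higher in the RNAi line. CHLH, the large subunit of magnesium chelatase, was at 34.2 ± 2.66 against 47.7 ± 2.24 FPKM (log2 fold change -0.47 ± 0.10, limma adjusted p = 0.0045). CHLD, another chelatase subunit, was at 4.05 ± 0.291 against 4.06 ± 0.148 FPKM and GSA, an enzyme of an early step, at 35.7 ± 1.14 against 37.6 ± 0.368 FPKM, and neither passed. Scaling to total recovered reads gave 8 lower and 0 higher in the RNAi line, and the 1 higher call was lost under most other alternatives too.

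Walls of growing cells are loosened by expansins, and EXPB8 (LOC_Os03g01260), a beta-expansin, was a member. It had 19, 21 and 25 FPKM untreated, 6.2 and 7.3 FPKM under PEG, and 2.23, 2.38 and 2.17 FPKM in the RNAi line. With 0.334 of the wild-type PEG mean it had the lowest ratio in the RNAi line among the named members. EXPB7 (LOC_Os03g01270), an expansin gene with the next locus number, was at 14.8, 16 and 16 FPKM untreated, 4.29 and 4.77 FPKM under PEG and 3.9, 2.65 and 3.16 FPKM in the RNAi line. EXPB7 fell under PEG to 0.29 of untreated, much as EXPB8 did at 0.312. The RNAi line had 0.714 of the wild-type PEG level of EXPB7 (log2 fold change -0.39 ± 0.11, limma adjusted p = 0.019), a call that did not hold when WT_PEG replicate 2 was left out (limma adjusted p = 0.13) or RNAi replicate 3 was (limma adjusted p = 0.051). Whether the neighbouring expansin genes share reads was not tested.

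Among 19 listed expansin genes, which do not include EXPB8, 17 fell and 2 rose under PEG (median log2 fold change -0.80). In the RNAi line 7 were lower and 8 higher than wild-type under PEG, with a median of -0.08. The shares over all genes were 36.8% lower and 38.6% higher under PEG, and 16.4% lower and 21.3% higher in the RNAi line. EXPB6 was lower, at 6.68 ± 0.62 against 11.5 ± 1.5 FPKM (log2 fold change -0.71 ± 0.08, limma adjusted p = 0.00021). EXPB4, by contrast, was higher at 26.1 ± 0.927 against 16.1 ± 1.45 FPKM (log2 fold change 0.67 ± 0.08, limma adjusted p = 0.00016), and EXPB3 at 12.3 ± 0.428 against 8.07 ± 0.113 FPKM. The number lower in the RNAi line was 4 without WT_PEG replicate 2 or without RNAi replicate 3.

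**Figure D3:**
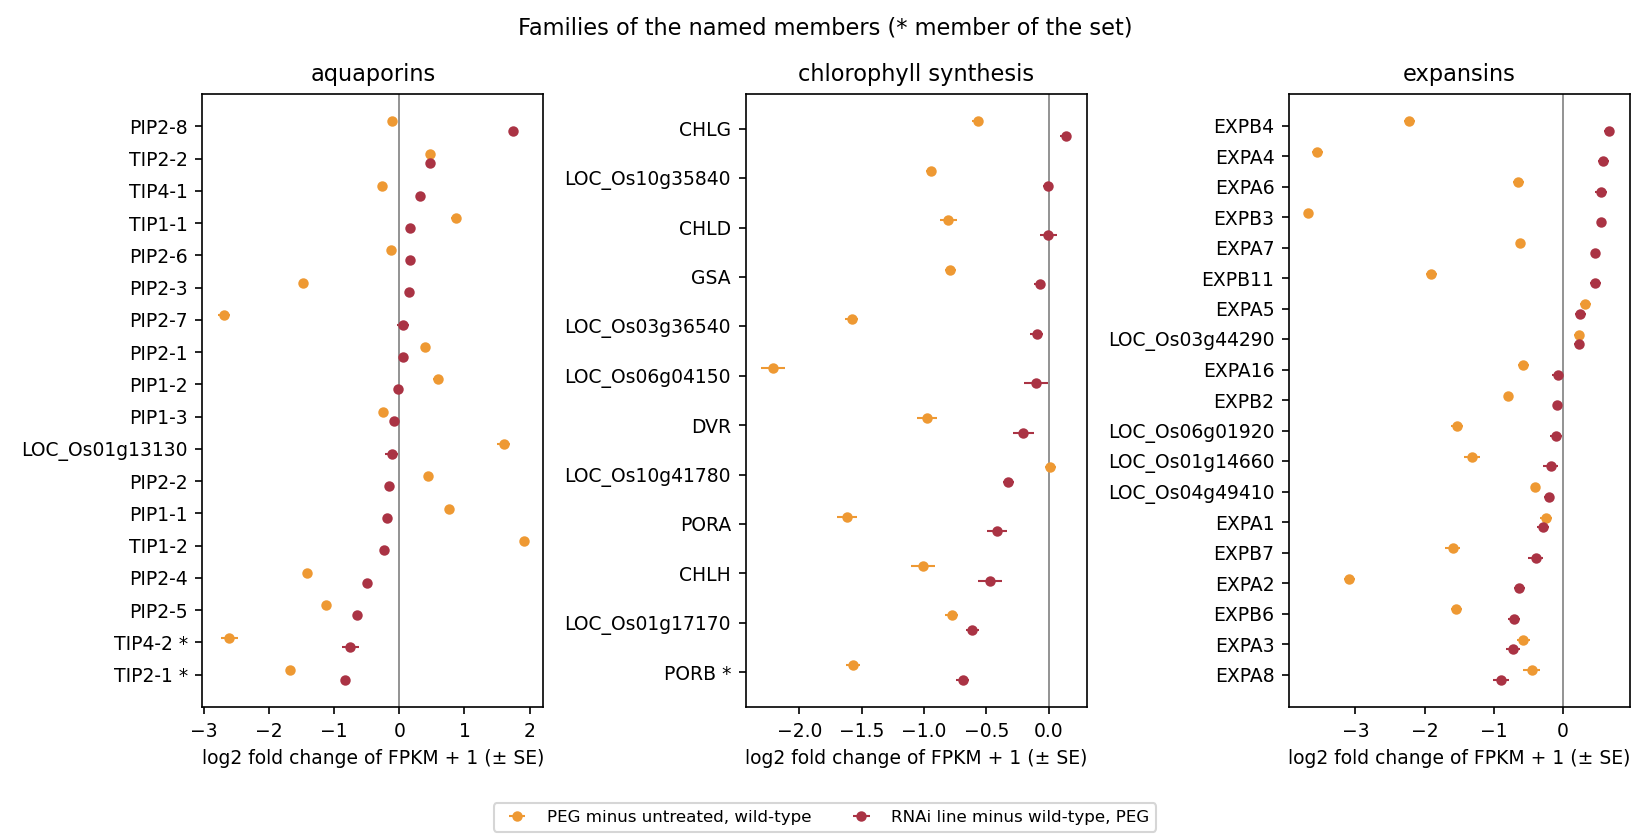
Log2 fold change of FPKM + 1 with its SE for each tested gene of 3 lists, under PEG in wild-type and in the RNAi line against wild-type under PEG. An asterisk marks a member of the set. TIP2-1, TIP4-2 and PORB lie at the bottom of their panels, while genes such as TIP2-2 and EXPB4 lie to the right of 0 in the RNAi comparison.

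LAC4 (LOC_Os01g62480) encodes a laccase, a copper oxidase of a family that couples lignin units in the wall. Its values were 8.8, 8.69 and 8.79 FPKM untreated, 3.1 and 2.65 FPKM under PEG, and 1.64, 1.44 and 1.71 FPKM in the RNAi line. The untreated libraries differed little.

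LPR2 (LOC_Os01g03549) belongs to multicopper oxidases named for the Arabidopsis LPR proteins, which act in the root response to low phosphate. It was at 3.51, 3.61 and 3.85 FPKM untreated, 1.3 and 1.58 FPKM under PEG and 0.617, 0.563 and 0.587 FPKM in the RNAi line. Close by on the chromosome, LPR1 (LOC_Os01g03530), picked for display after its values were seen, had 1.75, 1.81 and 1.8 FPKM untreated, 0.588 and 0.446 FPKM under PEG and 1.15, 1.09 and 1.08 FPKM in the RNAi line. LPR1 thus fell under PEG like LPR2 and was higher, not lower, in the RNAi line (log2 fold change 0.48 ± 0.06, limma adjusted p = 0.00025). LPR5 (LOC_Os01g03640) had at most 0.532 FPKM in any library and did not pass the filter. Between LPR2 and LPR5 in locus number, LOC_Os01g03620 met the condition on the wild-type PEG libraries. Its ratio of the RNAi line to wild-type under PEG was 0.588, lower like LPR2, though it was not a member. Whether this locus belongs to the same family was not checked.

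PIN2 (LOC_Os06g44970) encodes an auxin efflux carrier, known in Arabidopsis for root gravitropism. It was at 2.34, 2.11 and 2.15 FPKM untreated, 0.832 and 0.686 FPKM under PEG and 0.342, 0.308 and 0.357 FPKM in the RNAi line, where it rested on 37 to 68 reads a library. PIN2 had the lowest untreated mean of all members and was the nearest inside the limit of 2 FPKM. ILL3 (LOC_Os03g62060) is named for the Arabidopsis hydrolases that free auxin from its amino acid conjugates. Its values were 10.4, 10.2 and 9.71 FPKM untreated, 3.03 and 2.94 FPKM under PEG and 1.2, 0.941 and 1.2 FPKM in the RNAi line.

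NFYC2 (LOC_Os03g14669) encodes a subunit of the NF-Y complex, which binds CCAAT boxes. It was at 57.5, 57.6 and 66.1 FPKM untreated, 23.9 and 27.5 FPKM under PEG, and 11.6, 10.2 and 11.8 FPKM in the RNAi line. Replicates 3 of untreated and 2 of PEG stood highest within their groups. GRF1 (LOC_Os02g53690), a growth-regulating factor of a family active in young growing tissue, was at 3.79, 4.65 and 4.13 FPKM untreated, 0.958 and 1.49 FPKM under PEG, and 0.584, 0.597 and 0.456 FPKM in the RNAi line. Its wild-type PEG libraries differed by more than most, and its RNAi values rested on 38 to 47 reads.

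**Figure D4:**
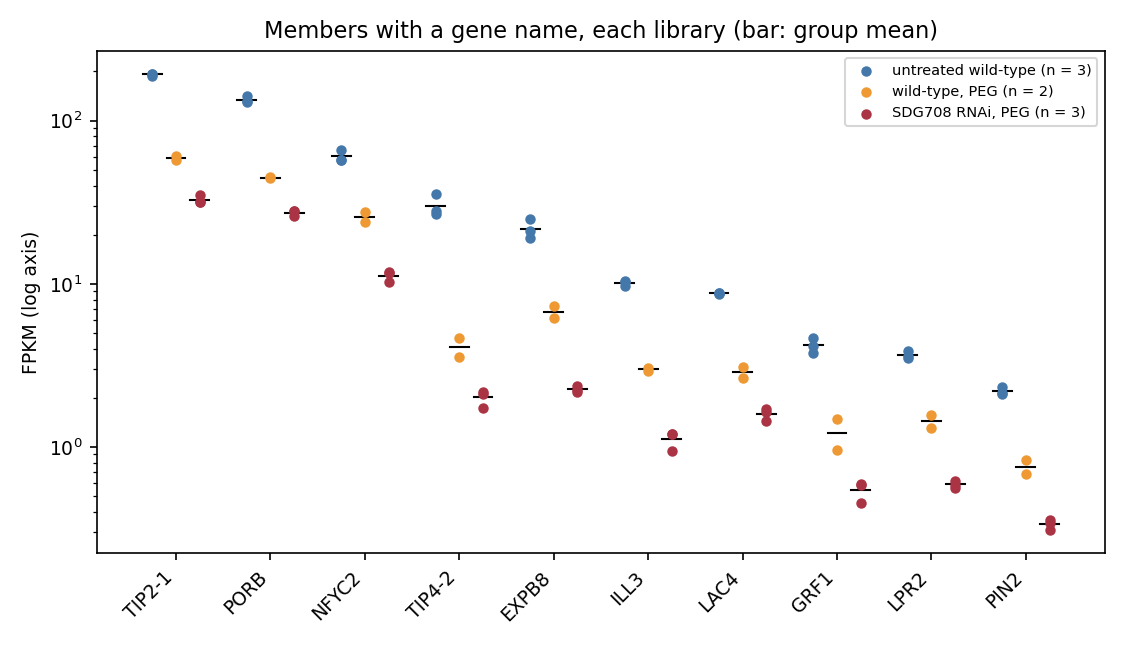
FPKM (log axis) in every library for the 10 members with a gene name, with the group mean as a bar. Each member steps down from untreated wild-type to wild-type under PEG and again to the RNAi line, from TIP2-1 with 188 to 194 FPKM untreated to PIN2 with 2.11 to 2.34 FPKM.

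Untreated levels ranged widely among the members, from 2.2 to 226 FPKM in the mean with a median of 10.1. Above 100 FPKM were 4 members, 29 lay between 20 and 100, 42 between 5 and 20 and 32 up to 5 FPKM. FPKM here divides by a length close to the whole gene span with introns, so a gene with long introns has a lower value. The highest was LOC_Os06g40640, with 219, 221 and 238 FPKM untreated, 91.7 and 95.4 FPKM under PEG, and 55.7, 51.6 and 52.3 FPKM in the RNAi line. It fell 2.42-fold and then 1.76-fold, which is less than the median member in both steps.

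Ranked after TIP2-1, LOC_Os03g56930 and PORB, LOC_Os12g07210 was at 84.4, 86.1 and 93.4 FPKM untreated, 23.7 and 24.1 FPKM under PEG, and 3.65, 4.38 and 4.32 FPKM in the RNAi line. It combined a high untreated level with one of the 10 lowest ratios in the RNAi line, 0.172 of wild-type under PEG. LOC_Os02g40240 was at 58.9, 59.1 and 51.1 FPKM untreated, 24.2 and 22 FPKM under PEG, and 4.47, 5.45 and 4.79 FPKM in the RNAi line, a ratio of 0.212. LOC_Os10g40510 stood at 60.4, 59.2 and 65.3 FPKM untreated, 19.2 and 19 FPKM under PEG, and 10.7, 9.37 and 11.1 FPKM in the RNAi line. In LOC_Os07g47990 the values were 59.1, 60 and 59.1 FPKM, then 22.4 and 22.6 FPKM, then 12.9, 12.9 and 13.7 FPKM. LOC_Os09g38090 was nearly the same, with 58.1, 58.1 and 58.9 FPKM untreated, 22.1 and 23.3 FPKM under PEG, and 13.4, 13.1 and 13.1 FPKM in the RNAi line. These last 3 had between 0.545 and 0.584 of the wild-type PEG mean in the RNAi line, so that the 10 highest members held both mild and deep steps.

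The step from wild-type to the RNAi line was deep in few members. The ratio was under 0.2 in 14 members, from 0.2 to under 0.4 in 29 and 0.4 or above in 64. The lowest ratio, 0.0755, belonged to LOC_Os08g05610, with 3.34, 3.59 and 4.08 FPKM untreated, 0.686 and 0.611 FPKM under PEG and 0.0557, 0.0469 and 0.0444 FPKM in the RNAi line. Only 2 to 3 reads a library stood behind the RNAi values. Pooled over libraries the fold was 13.3, with an exact 95% interval of 6.38 to 32.2 from 66 and 8 reads. This and the intervals below cover counting error only. They leave out the spread between libraries and the choice of these loci for low ratios in the same reads.

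LOC_Os10g18760 was at 8.07, 6.6 and 5.45 FPKM untreated, 2.29 and 2.11 FPKM under PEG, and 0.131, 0.166 and 0.223 FPKM in the RNAi line. Its pooled fold was 12.4 with an interval of 8.6 to 18.4. LOC_Os04g39300 had 7.58, 7.14 and 8.9 FPKM untreated, 2.02 and 3.39 FPKM under PEG and 0.281, 0.0709 and 0.336 FPKM in the RNAi line. Both its PEG and its RNAi libraries were uneven, RNAi replicate 2 resting on 2 reads, and the pooled fold was 10.8 (7.16 to 16.8). More reads stood behind LOC_Os06g28194, a locus of 21547 bp, the longest among the members. It was at 2.64, 2.72 and 2.58 FPKM untreated, 1 and 1.07 FPKM under PEG, and 0.1, 0.108 and 0.11 FPKM in the RNAi line. With 1615 reads in wild-type and 268 in the RNAi line its pooled fold was 9.74 (8.55 to 11.1).

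Further down the same ranking, LOC_Os06g48560 was at 17.3, 16.8 and 20.1 FPKM untreated, 4.49 and 5.44 FPKM under PEG, and 0.875, 0.26 and 0.917 FPKM in the RNAi line. RNAi replicate 2 was again well below the other RNAi libraries. LOC_Os08g25850 hardly varied in untreated wild-type (3.23, 3.23 and 3.26 FPKM), had 1.58 and 1.36 FPKM under PEG and 0.157, 0.18 and 0.285 FPKM in the RNAi line. LOC_Os08g14940 was at 4.3, 4.49 and 4.01 FPKM, then 0.649 and 0.562 FPKM, then 0.064, 0.121 and 0.0766 FPKM. It fell about 7-fold at each step, 7.04-fold under PEG and 6.94-fold in the RNAi line, and ranked among the 10 lowest ratios in both. LOC_Os01g73700 was the most scattered of the 10, with 3.69, 4.04 and 3.24 FPKM untreated, 1.36 and 0.676 FPKM under PEG and 0.327, 0.0973 and 0.0615 FPKM in the RNAi line, the last on 4 to 17 reads.

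Under PEG the deepest falls, to between 0.131 and 0.173 of untreated, came in LOC_Os10g05780, TIP4-2, LOC_Os07g44550, LOC_Os08g14940 and 6 more. LOC_Os11g41710 was the highest of the 10, with 39.5, 39.3 and 38.9 FPKM untreated, 5.25 and 5.95 FPKM under PEG and 2.06, 1.97 and 1.75 FPKM in the RNAi line. LOC_Os07g01410 was at 16.1, 16.8 and 14.4 FPKM, then 2.28 and 2.3 FPKM, then 1.37, 1.44 and 1.43 FPKM. Its fall under PEG was 6.89-fold, while its ratio of 0.618 in the RNAi line was the mildest of all members. LOC_Os04g32820 had 11.7, 11.9 and 13.3 FPKM untreated, 1.97 and 1.64 FPKM under PEG and 0.343, 0.558 and 0.548 FPKM in the RNAi line. LOC_Os01g20830 was at 24.9, 23.7 and 27.1 FPKM untreated, 4.08 and 3.58 FPKM under PEG, and 2.24, 2.07 and 2.2 FPKM in the RNAi line. Among these members a deep fall under PEG came with a mild step in the RNAi line, as in LOC_Os07g01410, or with a deep one, as in LOC_Os08g14940.

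LOC_Os06g20150 went from 24.1, 24 and 26.4 FPKM to 4.25 and 3.76 FPKM under PEG and 1.92, 1.84 and 2.2 FPKM in the RNAi line. LOC_Os01g71380 had 7.38, 7.47 and 5.99 FPKM untreated, 1.1 and 1.3 FPKM under PEG and 0.425, 0.303 and 0.457 FPKM in the RNAi line. Within each of these loci the groups lay apart, as the rule requires.

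Members were spread over all 12 chromosomes, with 15 on chromosome 1 and 14 each on chromosomes 2 and 3. Chromosome 10 held 12 members, 11.2% of the set against 5.17% of the 15601 loci with at least 2 FPKM untreated, and chromosome 5 held 3, or 2.8% against 8.6%. These shares are descriptions without a test. The gene span recovered from the FPKM steps had a median of 2108 bp among the members, 3184 bp among the 15601 loci and 1756 bp among the 61 loci of the mirrored rule.

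In 7 places 2 members lay within 5 rows of each other in chromosome order. LOC_Os04g56230 and LOC_Os04g56240 were adjacent rows. The first was at 17.4, 17.6 and 18.5 FPKM untreated, 7.37 and 7.95 FPKM under PEG, and 2.57, 2.92 and 3.11 FPKM in the RNAi line, and the second at 47.2, 48.2 and 54.9 FPKM, 21.1 and 22.9 FPKM, and 5.82, 5.7 and 5.99 FPKM. Spans of 3725 and 3673 bp were alike, and LOC_Os04g56240 stood higher in every library. The other adjacent rows, LOC_Os07g43560 and LOC_Os07g43570, had spans of 3906 and 3885 bp. LOC_Os07g43560 was at 21, 22.3 and 21.2 FPKM untreated, 4.64 and 4.58 FPKM under PEG, and 0.987, 0.935 and 0.942 FPKM in the RNAi line. LOC_Os07g43570 was at 6.36, 6.07 and 6.06 FPKM, 1.12 and 1.43 FPKM, and 0.208, 0.229 and 0.144 FPKM. Both fell to about the same share under PEG, 0.215 and 0.206, and further in the RNAi line, to 0.207 and 0.152 of wild-type. No sequence was used here, so whether the loci of a pair are similar copies that share reads was not tested.

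LOC_Os03g56930 had 165, 162 and 195 FPKM untreated, 48.6 and 53.5 FPKM under PEG and 23.8, 23.8 and 25.1 FPKM in the RNAi line. A little further along, LOC_Os03g56950 had 34.7, 36.7 and 35.9 FPKM, 8.76 and 8.97 FPKM, and 5.06, 4.98 and 5.02 FPKM. Both ended near 0.14 of their untreated mean in the RNAi line (0.139 and 0.14). Between them, LOC_Os03g56940 stayed below the untreated minimum of the rule, at 1.26, 1.52 and 1.42 FPKM untreated, 0.394 and 0.322 FPKM under PEG and 0.0451, 0.142 and 0.018 FPKM in the RNAi line. LOC_Os03g56944, also between them, was at 22.8, 21 and 29.8 FPKM, 16.8 and 16.7 FPKM, and 13.9, 11.9 and 13.4 FPKM, a milder decline.

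On chromosome 7, LOC_Os07g44550 was at 15.1, 16.3 and 17.5 FPKM untreated, 2.47 and 2.14 FPKM under PEG, and 0.703, 0.666 and 0.857 FPKM in the RNAi line. LOC_Os07g44590 was at 5.81, 6.43 and 6.61 FPKM, 1.27 and 1.23 FPKM, and 0.637, 0.426 and 0.523 FPKM. Both lay apart between groups, as the rule requires. LOC_Os10g05780 was at 7.4, 7.52 and 9.5 FPKM, 1.13 and 0.992 FPKM, and 0.425, 0.302 and 0.286 FPKM, and LOC_Os10g05820 at 2.9, 3.71 and 3.66 FPKM, 0.482 and 1.03 FPKM, and 0.224, 0.254 and 0.25 FPKM. WT_PEG replicate 1 of LOC_Os10g05820 was less than 0.5 times replicate 2, a wide spread for this locus.

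Chromosome 2 held the last pairs. LOC_Os02g02140 was at 2.83, 2.89 and 2.59 FPKM untreated, 1.1 and 1.01 FPKM under PEG, and 0.394, 0.554 and 0.29 FPKM in the RNAi line, and LOC_Os02g02160 at 4.74, 4.24 and 3.84 FPKM, 1.21 and 1.33 FPKM, and 0.511, 0.161 and 0.28 FPKM. The RNAi libraries of LOC_Os02g02160 ranged over 4 to 16 reads. LOC_Os02g54570 was at 8.15, 8.06 and 10.9 FPKM, 2.34 and 2.72 FPKM, and 0.631, 0.429 and 0.968 FPKM, and LOC_Os02g54640 at 3.43, 3.48 and 3.59 FPKM, 0.839 and 0.929 FPKM, and 0.303, 0.267 and 0.398 FPKM. Of the 38 other rows between these 7 pairs or within 2 rows on either side, 22 passed the filter. Under PEG 12 of the 22 fell and 5 rose (limma adjusted p under 0.05). In the RNAi line 3 were lower and 5 higher than wild-type under PEG. Over all genes tested, 36.8% fell and 38.6% rose under PEG, and 16.4% were lower and 21.3% higher in the RNAi line. Nothing about the neighbouring rows is read from these counts.

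**Figure D5:**
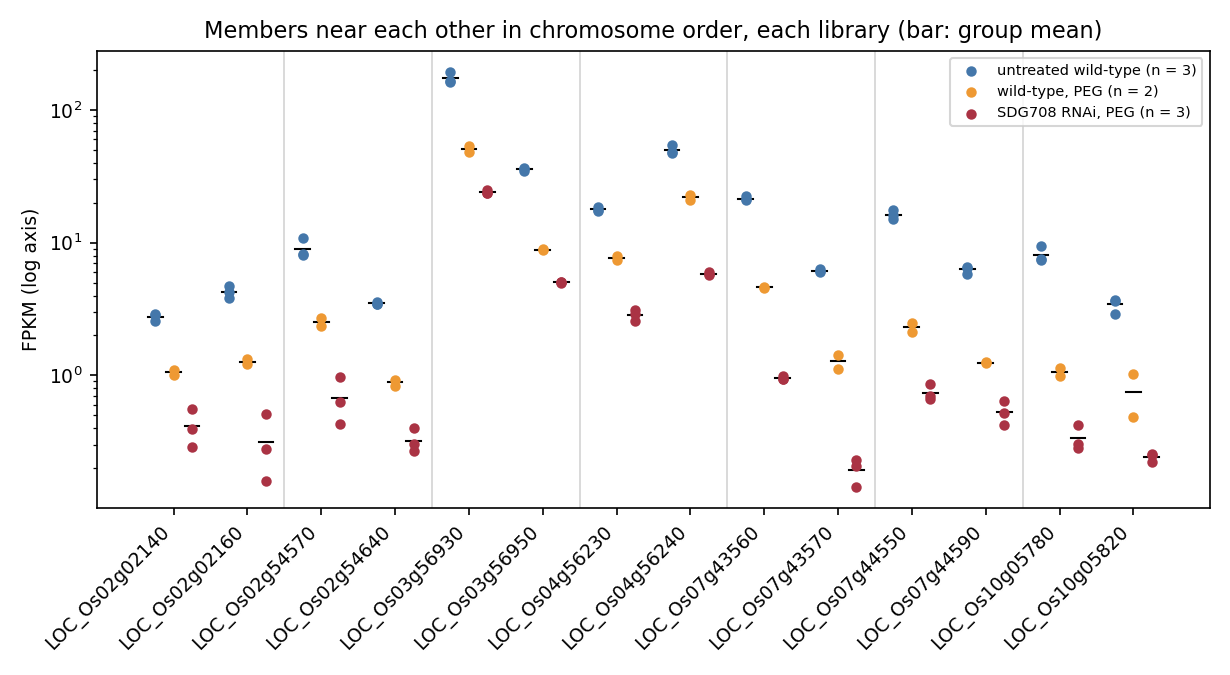
FPKM (log axis) in every library for the 14 members that lie within 5 rows of another member in chromosome order, with the group mean as a bar and grey lines between the 7 pairs. Members of a pair differ in level, as LOC_Os03g56930 with 162 to 195 FPKM and LOC_Os03g56950 with 34.7 to 36.7 FPKM untreated, and both step down at each change of group.

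The loci nearest to each limit of the rule were as follows. At the limit on untreated FPKM, PIN2, LOC_Os07g02140 and LOC_Os01g67390 lay inside with lowest values of 2.106, 2.118 and 2.246 FPKM, and LOC_Os12g05380, LOC_Os06g44280 and LOC_Os01g12770 outside with 1.99, 1.974 and 1.928 FPKM. At the upper limit under PEG, LOC_Os08g25850, LOC_Os04g56240 and NFYC2 had 0.4911, 0.4859 and 0.4777 of the lowest untreated value, against 0.5025, 0.5029 and 0.5052 in LOC_Os01g10810, LOC_Os01g43270 and LOC_Os10g31440 outside it. The lower limit under PEG was approached by TIP4-2, LOC_Os10g05780 and LOC_Os11g41710 at 0.1322, 0.134 and 0.1351. Below it lay LOC_Os04g46810, LOC_Os09g31230 and LOC_Os05g47540 at 0.1067, 0.0998 and 0.09849, so that genes with a deeper fall under PEG are left out by construction. In the RNAi line LOC_Os06g04510, LOC_Os06g46670 and LOC_Os04g19140 lay inside at 0.6478, 0.6473 and 0.6472 of the lowest wild-type PEG value, and LOC_Os10g38710, LOC_Os09g36580 and PIP2-5 outside at 0.6545, 0.6573 and 0.6583.

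The depth behind the members was uneven. Recovered reads ran from 30817288 to 49706698 a library. In their poorest RNAi library the members had between 1 and 3377 reads, with a median of 76. At least 100 reads in every RNAi library stood behind 48 members, and under 20 reads in some RNAi library behind 23. The coefficient of variation between RNAi libraries had a median of 8.63% and reached 90%, while its median over the 15601 loci was 4.52%. Untreated replicate 3 was the highest untreated library in 61 members (57%), against 53.3% of the 15601 loci, and WT_PEG replicate 2 exceeded replicate 1 in 64 members (59.8%) against 49.8%.

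Markers of organs also differed between the groups, not all in the direction of the set. The 13 listed antenna genes, which mark leaf tissue, summed to 32794 to 39292 FPKM untreated, 22946 and 25185 FPKM under PEG and 16488 to 17740 FPKM in the RNAi line. The Rubisco list (4 loci, 3 entered as small subunits and 1 as the activase) summed to between 10506 and 11623 FPKM, then 4465 and 4556 FPKM, then 3781 to 4005 FPKM. None of these 4 names passed the check by chromosome and gene length. The step of the list in the RNAi line lay in LOC_Os11g47970, entered as the activase, at 0.606 of wild-type under PEG. The loci entered as small subunits had ratios of 1.03, 1 and 0.967 and were not called. The 18 photosystem and electron transport loci summed to between 20139 and 24072 FPKM, then 14860 and 16119 FPKM, then 11034 to 11725 FPKM. Of the tested antenna genes 10 of 13 were called lower under PEG and 11 in the RNAi line, of the Rubisco list 4 and 1 of 4, and of the photosystem genes 15 and 14 of 17. Over all genes tested, 36.8% were called lower under PEG. In the RNAi line 16.4% of all genes were called lower and 21.3% higher. The 3 root markers, among them the silicon transporter genes LSI1 and LSI2, summed to 422.3 to 454.6 FPKM untreated, 64.28 and 63.54 FPKM under PEG and 50.11 to 53.79 FPKM in the RNAi line. All 3 fell under PEG, and 1 was called lower in the RNAi line. Transcripts of 6 seed storage loci summed to 2.687 to 3.039 FPKM untreated, 4.101 and 2.721 FPKM under PEG and 31.88 to 35.15 FPKM in the RNAi line. All 4 seed loci tested were higher in the RNAi line, and 2 of the 6, GLUB4 among them, were at 0 in every wild-type library. With 125 to 211 reads in a wild-type library and 1185 to 1982 in an RNAi library, the seed transcripts remained scarce. The part of leaf, root or seed tissue in the values of the 107 members was not tested.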

How the data were processed

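Polyadenylated RNA from rice seedlings was sequenced in stranded libraries, per the labels' protocols. The authors deposited FPKM values per locus and library, their group means, and their own log2 fold changes and p-values of 2 comparisons; the deposited log2 and p-value columns were not used. The submitters' processing notes list HISAT2, SAMtools, cutadapt, FastQC, deepTools, DESeq2 and featureCounts, giving neither roles nor versions. Build, annotation and counting strand: not given in the sources used here. Reads of overlapping antisense genes may therefore be mixed.

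Whole reads were recovered from the FPKM steps for 34119 of 34119 rows within 0.03 reads, giving 30817288 to 49706698 reads a library. Genes with at least 1 FPKM in at least 2 of 8 libraries (20943) entered a limma 3.58.1 model (R 4.3.3) of log2(FPKM + 1) with all 3 groups, a variance trend and 5 residual degrees of freedom. Tests were two-sided, called at a Benjamini-Hochberg adjusted p under 0.05. The pseudocount understates changes of low genes, and folds and ratios of members are of mean FPKM. The fit was tested on simulated data. Intervals of folds are exact binomial intervals on pooled reads at 95% confidence (scipy 1.17.1), scaled by the denominators.

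Members were found by the rule from library FPKM. The members and gene lists were chosen with earlier results of these data known, so no pattern shown here is independent support. Named with values are members whose name, paired with the locus from general knowledge, the reference table (assembly ASM3414082v1, used for names only) holds on the same chromosome with a span within 15%, the 10 highest untreated, the 10 lowest ratios of either step, members within 5 rows of another, the 3 nearest loci at each side of every limit, and listed genes of a named member's family. The names of 7 members, and LPR1 and LPR5, were added after values were seen. Of 164 listed loci 3 were members. Loci are in MSU form. Alternatives were another pseudocount, no filter, other scalings, limma-voom, a replicate block, leaving out libraries, and other limits of the rule. Promoter and protein sequences were not used here.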

Additional observations from a re-analysis of the deposited data

How the results depend on the processing

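Moving the limits changed the size of the set: 47 loci met the rule with an RNAi factor of 0.5, 236 with 0.8, and 251 with group means in place of extremes. With 0.8 all 107 members remain by construction. All 107 also remained with means, where only the lower limit under PEG could have removed a member. With libraries scaled to equal medians 125 loci met it, and with scaling to total recovered reads 151, of which 104 were members. Leaving out a library gave 112 to 147 loci, with all 107 members among them. This loosens the rule by its construction, except that leaving out an untreated library can tighten the lower limit under PEG. An untreated minimum of 1 or 5 FPKM gave 144 or 72 loci. Over all genes, the RNAi comparison had 7879 calls, and leaving out 1 library gave 5174 to 9337, the lowest without WT_PEG replicate 2. The cause was not tested. The PEG response had 15778 calls (14242 to 16043) and the RNAi line under PEG against untreated wild-type 16978 (16258 to 17169). Scaling to total recovered reads turned 8076 higher and 7702 lower under PEG into 6522 and 9206, 4451 and 3428 in the RNAi comparison into 3444 and 4402, and 8592 and 8386 in the last into 6705 and 10530. The same scaling shifted the all-gene median under PEG from 0.02 to -0.09 (log2). Deviations from the group means correlated between samples that share a replicate number at -0.234 to 0.361. Between samples with different numbers the range was -0.403 to 0.332, and the numbers were not taken as pairs. With only 2 WT_PEG libraries, each correlation with the first has its opposite with the second. A replicate block gave 15849, 7714 and 17213 calls in the 3 comparisons, and limma-voom on recovered reads 15885, 8114 and 17127. Members with few reads in the RNAi line are the least precise.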
